A study of Homo sapiens with 3 samples.

Results

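Genomic imprinting is the expression of a gene from 1 parental copy only, set by DNA methylation that the egg or the sperm laid down. Imprinted genes lie in clusters in which a methylated control region, and often a long noncoding RNA, governs several neighbouring genes, so that the maternal and the paternal copy of 1 stretch of DNA are in different chromatin. Many such clusters are also known for replicating at different times on their maternal and paternal copies. Calls of replication origins in 4 of these domains are described here: H19-IGF2-KCNQ1-CDKN1C on chromosome 11 (11:2000000-2950000), DLK1-MEG3 on chromosome 14 (14:101150000-101550000), MAGEL2-SNRPN-UBE3A on chromosome 15 (15:23800000-25750000) and GNAS on chromosome 20 (20:57400000-57490000), all in hg19. A call was taken as a member when at least 1 of its bases lay inside a domain. Of 247794 diffuse regions in the whole series 376 were members, and of 443480 summits 562.

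The calls came from short nascent strand sequencing (SNS-seq), which purifies short RNA-primed DNA strands left by newly fired origins after lambda exonuclease has digested other DNA, and sequences them to show where replication starts. The cells were HCT116, an established human colorectal cancer line, without any treatment, and the 3 replicates formed 1 group with no second condition. EPIC2, a caller of broad enrichment, gave 187, 98 and 91 member regions in replicates 1, 2 and 3. MACS2, a caller of narrow peaks deposited here as single-base summits, gave 282, 126 and 154.

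Genome-wide, the lists ran from 44482 regions and 63077 summits in replicate 2 to 124492 regions and 218227 summits in replicate 1, with 78820 regions and 162176 summits in replicate 3. Numbers of calls were therefore compared within a replicate, between a domain and the rest of its own chromosome. The lists hold no read numbers, so depth is unknown and no counting interval was computed. The labels do not say whether the replicates were separate cultures, and their spread may be technical. With 3 replicates, the smallest p a 2-sided exact sign test can reach is 0.25, so no difference below could pass that test. No other test was run. Reads were not divided by parental copy, so no value below belongs to either allele.

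A common region denotes an EPIC2 region in which the same library also had a MACS2 summit. Common regions that overlapped were merged over the replicates, and a merged region with common regions of 2 or 3 replicates is called a consensus origin. The order of genes given below is that of RefSeq on GRCh38, another build than that of the calls, so calls were not placed in genes and no sequence was read.

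The H19-IGF2-KCNQ1-CDKN1C domain carried common regions at a higher density than the rest of chromosome 11 in all 3 replicates. The MAGEL2-SNRPN-UBE3A domain had a lower density than the rest of chromosome 15 in all 3. In the DLK1-MEG3 and GNAS domains, 2 replicates were above and 1 below their chromosome. Densities in the H19-IGF2-KCNQ1-CDKN1C domain were 2.95 ± 1.70 (SD, n = 3) times those of the rest of its chromosome, and in the DLK1-MEG3 domain 2.28 ± 1.73 (SD, n = 3) times. The GNAS domain stood at 1.94 ± 1.39 (SD, n = 3) and the MAGEL2-SNRPN-UBE3A domain at 0.337 ± 0.0900 (SD, n = 3). The ratio of replicate 2, the replicate with the fewest calls, was the highest in the 3 domains with mean ratios above 1, whether EPIC2 regions, summits, common regions or covered bases were counted.

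**Figure D1:**
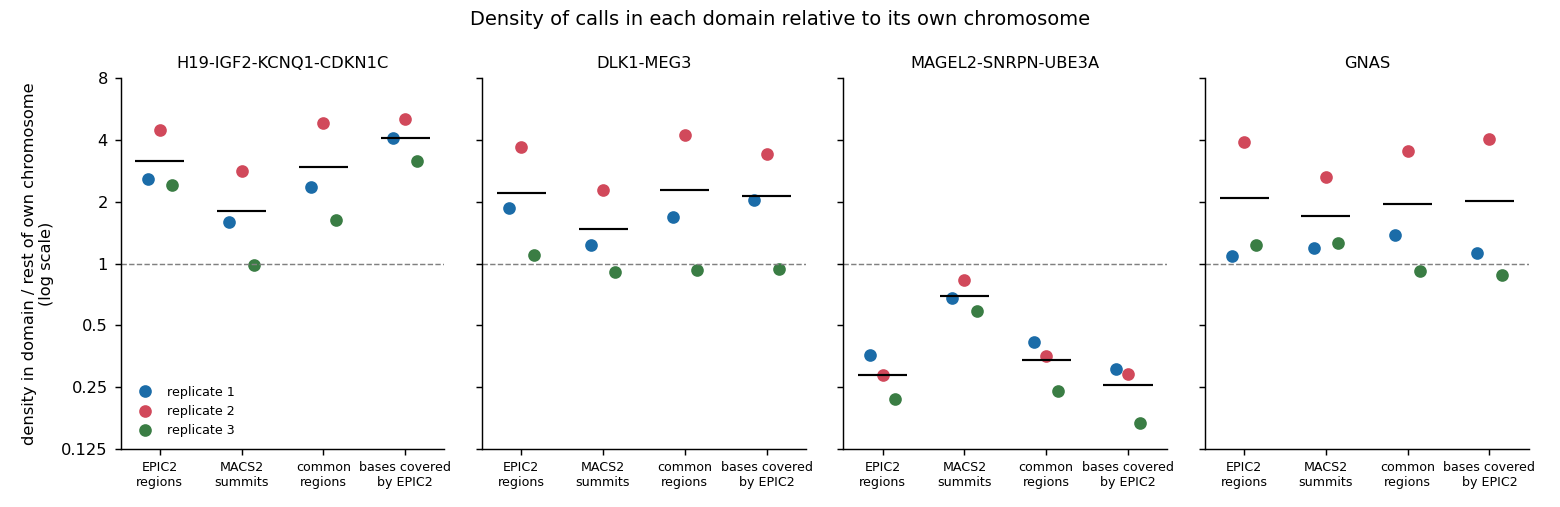
Density of calls in each domain divided by that in the rest of its chromosome, on a log axis, for EPIC2 regions, MACS2 summits, common regions and the share of bases covered by EPIC2 regions. Points are the 3 replicates, bars their means, and the dashed line marks equal density. In the MAGEL2-SNRPN-UBE3A domain every point lies below 1, and in the other domains replicate 2 lies highest.

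The H19-IGF2-KCNQ1-CDKN1C domain, which spans 0.95 Mb of 11p15, runs in the RefSeq order H19, IGF2, INS, TH, ASCL2, CD81, TRPM5, KCNQ1, KCNQ1OT1, CDKN1C, PHLDA2. H19 is a maternally expressed noncoding RNA, and IGF2 a fetal growth factor made from the paternal copy. KCNQ1OT1 is a paternally expressed antisense RNA within the potassium channel gene KCNQ1, and CDKN1C a maternally expressed inhibitor of cyclin-dependent kinases. Disturbed imprinting of the domain underlies Beckwith-Wiedemann syndrome.

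EPIC2 called 109, 63 and 60 regions there in replicates 1, 2 and 3, and MACS2 112, 61 and 50 summits. The number of common regions was 80, 42 and 28. Per megabase this came to 84.2, 44.2 and 29.5 common regions, beside 35.6, 9.09 and 18.1 in the rest of chromosome 11. The domain was thus denser by 2.36, 4.87 and 1.63 times, and without replicate 2 the mean ratio was 1.99. Summits alone gave a smaller contrast, at 1.59, 2.82 and 0.981 times the rest, so that replicate 3 had no higher density of summits than its chromosome. Covered bases gave the largest one. EPIC2 regions took up 37.3%, 21.2% and 32.6% of the domain beside 9.15%, 4.19% and 10.3% of the rest, a ratio of 4.10 ± 0.949 (SD, n = 3).

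The regions of this domain were wide in replicates 1 and 3. Their median width was 2800 bases in replicate 1 beside 1600 in the rest of the chromosome, and 4200 beside 3400 in replicate 3, while replicate 2 had 2600 bases in both. The widest measured 15400, 23400 and 14400 bases. The one of 23400 bases was the widest of replicate 2 on chromosome 11, while 3 regions of replicate 1 and 20 of replicate 3 elsewhere on the chromosome were wider than those of the domain. A share of 73.4%, 66.7% and 46.7% of regions held a summit, against a chromosome-wide 80.4%, 61.8% and 69%. In the other direction 88.4%, 73.8% and 60% of the summits in the domain lay in a region, where the chromosome had 58.2%, 43.9% and 41.5%. The excess over the rest of the chromosome was 26.6 ± 6.89 percentage points (SD, n = 3), and it was present in every replicate. The larger share of bases covered in the domain goes with this excess, and its part in it was not tested.

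**Figure D2:**
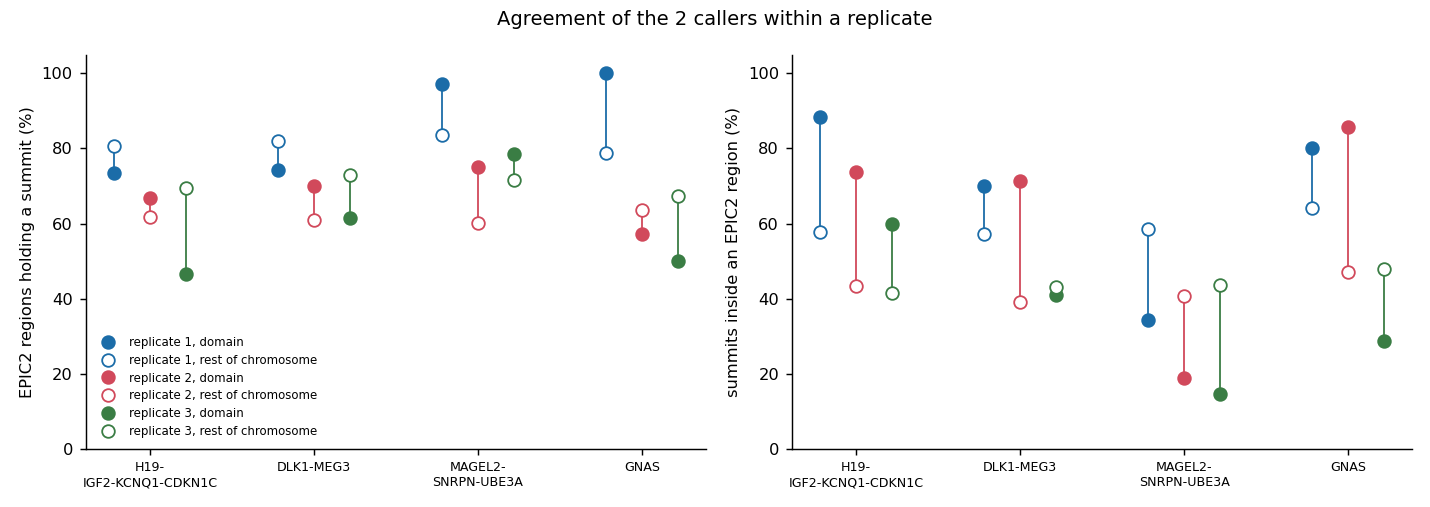
Left, percent of EPIC2 regions that held a summit of their replicate. Right, percent of summits inside an EPIC2 region. Filled points are the domain, open points the rest of its chromosome, colours the 3 replicates. On the right, the filled points lie above the open ones in all 3 replicates in the H19-IGF2-KCNQ1-CDKN1C domain and below them in all 3 in the MAGEL2-SNRPN-UBE3A domain.

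The neighbourhood of the domain was dense as well. In the 1 Mb before it, common regions with their midpoint inside numbered 98, 46 and 36 per megabase, above the 82.1, 43.2 and 28.4 of the domain in each replicate, and in the 1 Mb after it they numbered 57, 11 and 37. Against both flanks together the ratio was 1.17 ± 0.384 (SD, n = 3). For this ratio every common region touching the domain was counted in it, while regions of the flanks were counted by midpoint. Among 138 other windows of the same width on chromosome 11, 17, 2 and 36 held more common regions than the domain. At the upper edge, a common region of each replicate ran across 2950000. At the lower edge, replicate 1 had a common region across 2000000, replicate 3 an EPIC2 region without a summit, and replicate 2 none.

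Merging gave 87 regions over the domain, of which 35 were consensus origins (40.2%, with 34.3% of merged regions on the whole of chromosome 11), and 14 were found in all 3 replicates (16.1%, chromosome-wide 5.99%). An overlap of 1 base was enough to merge, and EPIC2 regions covered more of this domain than of the rest of the chromosome. The part of that coverage in these shares was not tested. The number of consensus origins was 13 without replicate 1, 20 without replicate 2 and 28 without replicate 3. In such counts, here and below, both remaining replicates had to call a region. Of the remainder of the 87, 39 belonged to replicate 1 alone (44.8%, with 44.4% in the rest of the chromosome), 8 to replicate 2 (9.20%, rest 4.56%) and 5 to replicate 3 (5.75%, rest 16.8%). The median consensus origin was 5000 bases wide, with medians of 11300 for the 14 shared by all replicates and 4200 for those of 2 replicates. In the rest of chromosome 11 those shared by all replicates had a median of 6200 bases. The longest stretch of the domain without a consensus origin, 11:2604601-2693400, measured 88.8 kb and still held 7, 2 and 2 summits.

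The top of the score scale in this domain was an origin shared by all replicates at 11:2719601-2723800. The summits there lay at 2721912, 2721930 and 2721903, 27 bases apart at most. Their scores, the −log10 of the MACS2 q-value, were 61.0, 37.9 and 2.33. Within their own lists these stood at percentiles 99.97, 99.0 and 13.2, so that replicates 1 and 2 ranked it near the top and replicate 3 low. Replicate 1 ranked the top summit above replicate 3 in 11 of the 14 origins of all replicates, and over chromosome 11 it did so in 76.2%. Replicate 2 ranked it above replicate 3 in 10 of the 14, chromosome-wide in 61.6%. The counts of the domain were near these shares.

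The widest consensus origin, 29400 bases at 11:2055001-2084400, had top summits at percentiles 99.1 and 98.8 in replicates 1 and 2 that were 6 bases apart, and 1 in replicate 3 at percentile 0.148, up to 9222 bases away. An origin at 11:2285201-2294800 followed the same order, at percentiles 99.3, 88.4 and 8.07. By contrast 11:2245401-2248200 was ranked at percentiles 56.3, 83.9 and 84.1, and 11:2480801-2492800 at 80.8, 79.4 and 82.9. The ranked top summits were up to 1497 bases apart in the former and up to 8149 in the latter. Among the other origins of all replicates, 11:2183401-2206400 was 23000 bases wide and 11:2100601-2118200 was 17600.

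Further origins common to the 3 replicates lay at 11:2153801-2167600, 11:2272801-2283000, 11:2402401-2413000, 11:2552601-2557200, 11:2746201-2760400, 11:2815201-2820200 and 11:2946201-2958800, the last of them crossing the edge of the domain. Their top summits had mean percentiles from 46.1 to 73.9. The 3 highest mean percentiles in the domain, each over the replicates that called the origin, were those of origins of replicates 1 and 2. These means leave out replicate 3, while those of the origins of all replicates include it. In replicates 1 and 2, 11:2719601-2723800 stood at percentiles 99.97 and 99.0 and 11:2055001-2084400 at 99.1 and 98.8. The 3 origins lay at 11:2546601-2548600 with 93.5, 11:2847801-2851400 with 91.3 and 11:2013401-2020800 with 90.6. In each of these, the top summits of both replicates stood within 44 bases of each other.

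Over all 35 consensus origins the top summits of the contributing replicates were within 250 bases in 12 and over 1000 bases apart in 19, with a median distance of 1386 bases. Sharing of single summits lay below the rest of the chromosome in 4 of the 6 directed pairs of replicates and above it in the other two. Of the summits of replicate 3, 16% had one of replicate 1 within 250 bases, beside 25.3% in the rest of the chromosome, although 85% of its EPIC2 regions overlapped one of replicate 1 (rest 67.4%). Summits of replicate 2 lay near one of replicate 1 in 41.0% of cases (rest 50.8%) and near one of replicate 3 in 8.20% (rest 13.7%). Those of replicate 1 lay near one of replicate 3 in 7.14% (rest 18.3%). The pairs above the rest were replicate 1 near replicate 2, with 22.3% (rest 15.6%), and replicate 3 near replicate 2, with 10% (rest 5.81%).

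**Figure D3:**
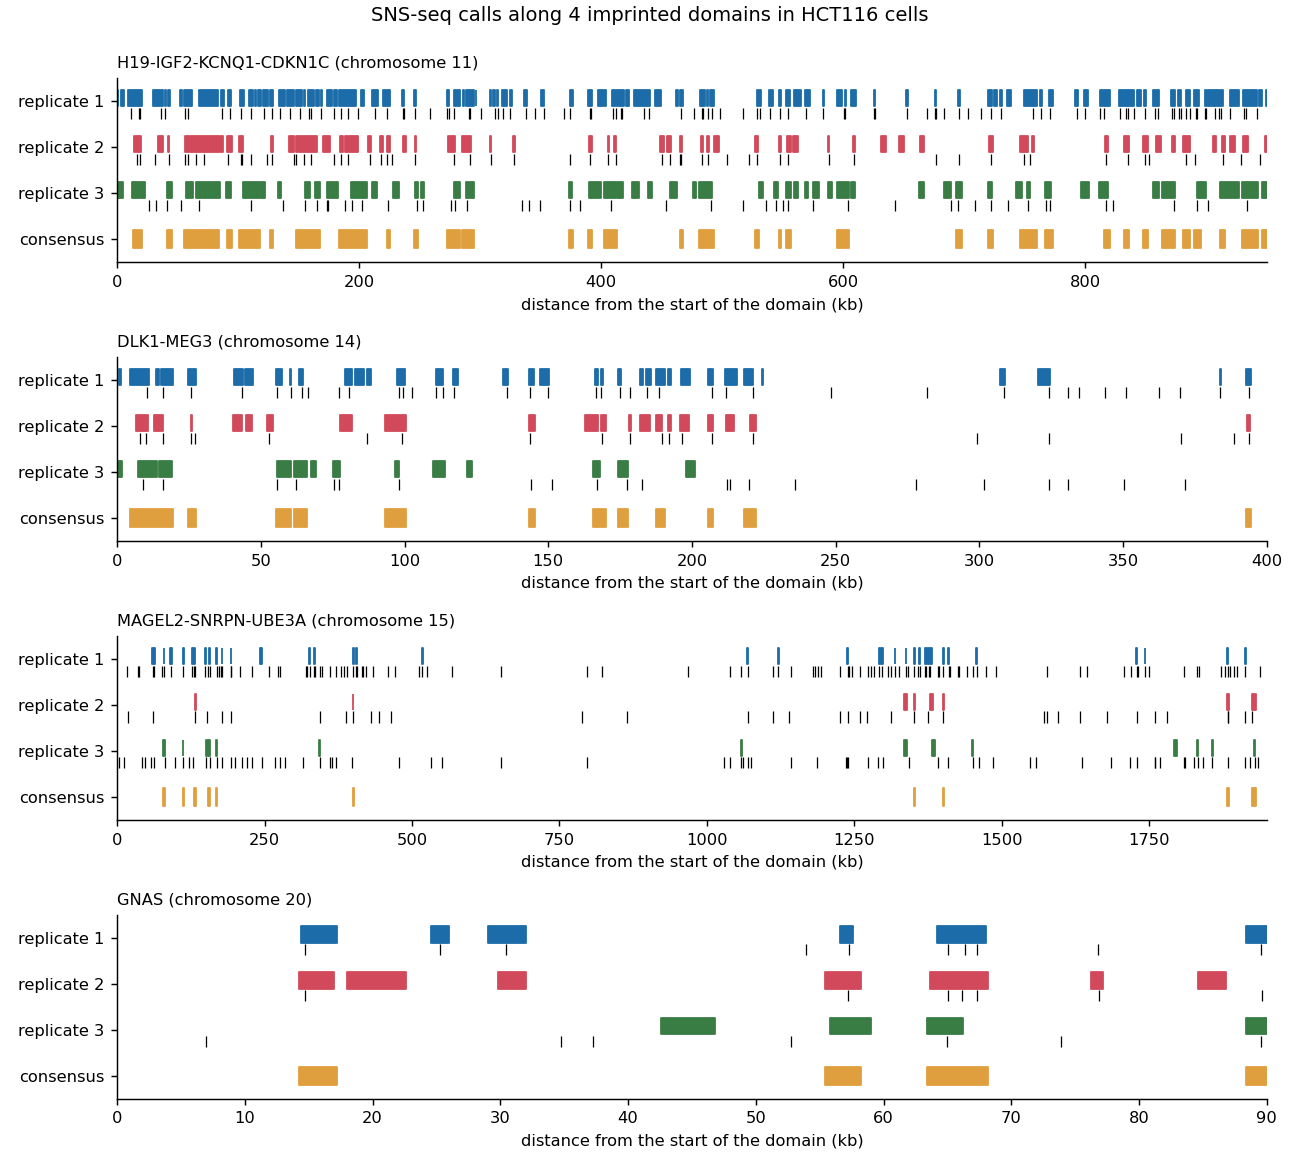
Calls along the 4 domains, with distance from the start of the domain in kb on each axis. Coloured boxes are EPIC2 regions and black ticks MACS2 summits of each replicate, and the lowest row of each panel shows the consensus origins. Boxes fill 37.3%, 21.2% and 32.6% of the H19-IGF2-KCNQ1-CDKN1C domain, thin out after about the midpoint of the DLK1-MEG3 domain and are sparse throughout the MAGEL2-SNRPN-UBE3A domain, where ticks outnumber them.

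The DLK1-MEG3 domain of 14q32 (0.4 Mb) has the RefSeq order DLK1, MEG3, RTL1, MEG8, MEG9. DLK1, a transmembrane protein related to Notch ligands, and RTL1, derived from a retrotransposon, are expressed from the paternal copy, and the noncoding RNAs MEG3, MEG8 and MEG9 from the maternal copy. In this domain EPIC2 called 35, 20 and 13 regions and MACS2 40, 21 and 22 summits.

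Common regions numbered 26, 14 and 8. That is 65, 35 and 20 per megabase, with 38.5, 8.26 and 21.5 in the rest of chromosome 14, and ratios of 1.69, 4.24 and 0.930. Replicates 1 and 2 were above their chromosome and replicate 3 slightly below it. Leaving out replicate 2 lowered the mean ratio to 1.31, and taking the 1 Mb on each side as reference turned it to 0.935 ± 0.508 (SD, n = 3). The flanks held 78, 29 and 54 common regions per megabase before the domain and 66, 19 and 36 after it. Of 220 other windows of this width on chromosome 14, 52, 5 and 83 held more common regions than the domain.

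Calls were crowded into the lower-numbered side of the domain. Its first 200 kb held 19, 11 and 8 common regions and the second 200 kb 7, 3 and 0. Coverage by EPIC2 regions was 29.3%, 22.8% and 20.8% in the first and 8.6%, 3.7% and 0.6% in the second. Every replicate thus had more common regions in the first stretch. Summits followed the same direction less steeply, with 25, 14 and 12 against 15, 7 and 10. The longest stretch without a consensus origin, 14:101372201-101542800, measured 170.6 kb or 42.7% of the domain. It held 11, 4 and 7 summits, which is 64.5, 23.4 and 41.0 per megabase, where the rest of the chromosome had 80.8, 22.95 and 60.5. Replicates 2 and 3 had no EPIC2 region in it and replicate 1 had 4. The stretch was picked from these calls for its lack of consensus origins, so low numbers of calls in it are partly set by the choice. The common regions next to the domain's end in replicate 1 were 14:101542801-101544400 inside and one at 14:101576001-101579600 outside.

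The share of EPIC2 regions with a summit was 74.3%, 70% and 61.5% in the domain and 82%, 61.2% and 72.8% on the chromosome. Summits inside a region made up 70%, 71.4% and 40.9%, with a chromosome-wide 57.3%, 39.5% and 43%. The difference from the rest was 14.3 ± 17.2 percentage points (SD, n = 3), within the spread of the replicates.

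Of 29 merged regions 13 were consensus origins (44.8%, chromosome 14 as a whole 33%), and 2 of these came from all 3 replicates (6.90%, chromosome-wide 4.78%). Without replicate 1 the count fell to 2, without replicate 2 to 7 and without replicate 3 to 10. The pair shared by all replicates were 14:101154601-101169400, with top summits at percentiles 95.0, 96.5 and 84.4, and 14:101243201-101250400, at 59.8, 18.8 and 87.8. The first was ranked high in every replicate, although the top summit of replicate 3 lay up to 5920 bases from the others. The second was ranked low in replicate 2.

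The 3 origins with the highest mean percentile were called in replicates 1 and 2, and each had its top summits within 29 bases. Their means leave out replicate 3, while the mean of 14:101154601-101169400 includes it. The 3 were 14:101318201-101320200 with a mean of 95.7, 14:101368201-101372200 with 94.2 and 14:101174601-101177400 with 93.6. In the first of them the score was 14.4 in replicate 1 and 30.8 in replicate 2. At 7 of the 13 consensus origins the contributing replicates were 1 and 2, which is 24.1% of the merged regions beside 7.49% in the rest of chromosome 14. At 4 they were 1 and 3 (13.8%, rest 20.1%), and none came from 2 and 3 alone (rest 0.525%).

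The MAGEL2-SNRPN-UBE3A domain (1.95 Mb of 15q11-q13) is ordered MKRN3, MAGEL2, NDN, NPAP1, SNHG14, SNRPN, UBE3A in RefSeq. MKRN3, MAGEL2, NDN and SNRPN are expressed from the paternal copy, and SNHG14 is the long noncoding transcript that hosts clusters of small nucleolar RNAs. UBE3A, a ubiquitin ligase, is expressed from the maternal copy in neurons. Loss of the paternal contribution causes Prader-Willi syndrome and loss of maternal UBE3A causes Angelman syndrome.

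EPIC2 called 37, 8 and 14 regions in this domain, while MACS2 called 120, 37 and 75 summits. Common regions numbered 36, 6 and 11, which is 18.5, 3.08 and 5.64 per megabase beside 44.3, 8.65 and 23.5 in the rest of chromosome 15. The ratios of 0.417, 0.356 and 0.240 were below 1 in 3 of 3 replicates. Summits were lowered less, at 0.678, 0.830 and 0.585 of the rest with a mean of 0.698 ± 0.124 (SD, n = 3). Coverage was lowered most, at 3.11%, 1.18% and 2.08% of the bases beside 10.1%, 4.08% and 12.4%, a ratio of 0.255 ± 0.0761 (SD, n = 3).

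Among 41 other windows of the same width on chromosome 15, 34, 37 and 35 held more common regions than the domain. The 1 Mb before the domain held 37, 7 and 21 common regions per megabase, above the domain in each replicate, and the 1 Mb after it 23, 1 and 4, above the domain in replicate 1 and below it in replicates 2 and 3. Against both flanks the ratio was 0.612 ± 0.159 (SD, n = 3). Outside the upper edge, the nearest common regions began at 25903601, 26105201 and 26080201, from 153601 to 355201 bases beyond the domain.

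**Figure D4:**
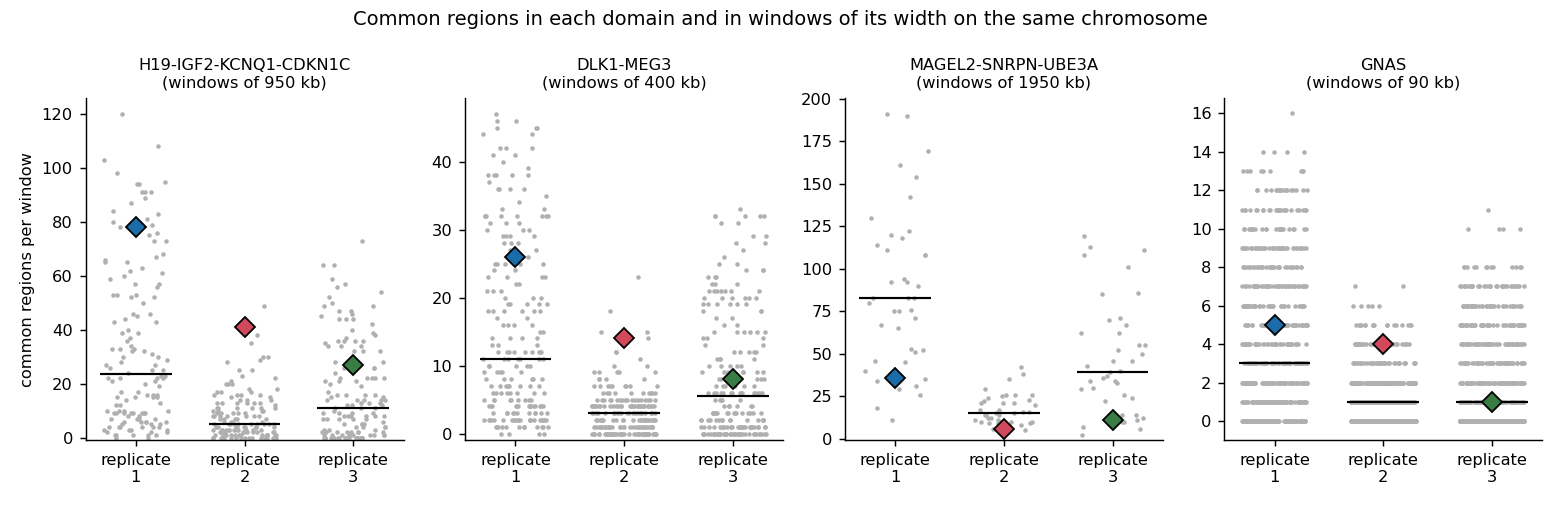
Common regions, counted by midpoint, in each domain (diamonds) and in all other windows of its width on its chromosome that hold any call (grey points), by replicate. Bars are the medians of the other windows. The MAGEL2-SNRPN-UBE3A diamonds, at 36, 6 and 11, lie below medians of 83, 15 and 39, and the H19-IGF2-KCNQ1-CDKN1C diamonds, at 78, 41 and 27, above medians of 23.5, 5 and 11.

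A smaller share of summits lay in an EPIC2 region here than in the rest of the chromosome, in each replicate. Of its summits 34.2%, 18.9% and 14.7% lay in an EPIC2 region, where chromosome 15 as a whole had 58.1%, 40.2% and 43.3%. The difference from the rest was -25.0 ± 3.72 percentage points (SD, n = 3) and had this sign in every replicate. The few regions called did hold a summit in 97.3%, 75% and 78.6% of cases, chromosome-wide 83.8%, 60.3% and 71.6%, which was 11.8 ± 4.19 points (SD, n = 3) above the rest. Summits in the domain also ranked lower, with a median percentile that differed from that of the rest by -5.93 ± 3.57 points (SD, n = 3). For EPIC2 scores this difference was 1.45 ± 11.6 points (SD, n = 3), below the rest in replicates 1 and 3 and above it in replicate 2. Regions were narrow, with median widths of 1400, 2300 and 2600 bases beside 1600, 2600 and 3400. The lower share of bases covered goes with the lower share of summits in a region, and its part was not tested.

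Merging gave 43 regions, of which 10 were consensus origins (23.3%, chromosome 15 as a whole 32%). None of the 43 was found in all 3 replicates, where the chromosome had 4.06%. The count was 1 without replicate 1, 4 without replicate 2 and 5 without replicate 3. Replicate 1 alone gave 27 of the merged regions (62.8%, rest of the chromosome 46.3%). The median consensus origin was 2000 bases wide, and together they took up 1.28% of the domain, where those of the rest of the chromosome took up 7.80%.

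The median gap between neighbouring consensus origins was 39800 bases, beside 18800 in the rest of the chromosome. The longest stretch of the domain without one, 15:24201401-25151400, measured 950 kb or 48.7% of the domain. It was not set against the longest stretch of the rest of chromosome 15. The 950 kb stretch held 9, 1 and 2 EPIC2 regions and 42, 13 and 20 summits. That is 44.2, 13.7 and 21.1 summits per megabase, where the rest of chromosome 15 had 90.8, 22.8 and 65.8. The stretch was picked from these calls for its lack of consensus origins, each of which needs summits. A lower density of summits in it is thus partly set by the choice. The longest stretches of the single replicates without a common region, 551000, 951000 and 713200 bases, lay largely in the same place, at 15:24318001-24869000, 15:24200801-25151800 and 15:24144401-24857600.

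The origin with the highest mean percentile was 15:25725201-25731400, called in replicates 2 and 3 at percentiles 96.1 and 92.5 with top summits 3986 bases apart, and replicate 1 had no call there. It was followed by 15:23931201-23933000 and 15:24199801-24201400, both of replicates 1 and 2. In these the top summits were 81 and 71 bases apart, with mean percentiles of 93.1 and 91.2. Over the 10 consensus origins, the median distance between top summits was 312 bases, and 3 of them had their top summits within 250 bases.

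The GNAS domain of 20q13 (0.09 Mb) holds GNAS-AS1 and GNAS. GNAS encodes the stimulatory G protein alpha subunit, and alternative promoters of the gene give maternally, paternally and biallelically expressed transcripts. Calls were few at this width: EPIC2 gave 6, 7 and 4 regions and MACS2 10, 7 and 7 summits. Common regions numbered 6, 4 and 2, with ratios to the rest of chromosome 20 of 1.38, 3.53 and 0.918 and a mean of 1.15 without replicate 2. Coverage was 15.1%, 22.4% and 13.1%, beside 13.4%, 5.55% and 14.9% in the rest. Replicate 2 was high in both measures, and replicates 1 and 3 were near their chromosome when all regions touching the domain were counted. By midpoint, replicates 1 and 3 had 55.6 and 11.1 common regions per megabase, with 48.2 and 24.2 in the rest of chromosome 20. Of 657 other windows of this width, 241, 24 and 310 held more common regions than the domain when regions were counted by midpoint, which left 5, 4 and 1 in the domain.

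All 6 EPIC2 regions of replicate 1 held a summit, as did 4 of 7 and 2 of 4 in the others (chromosome-wide 78.7%, 63.7% and 67.3%). Of the summits in the domain 80%, 85.7% and 28.6% lay in a region, with 64.1%, 47.2% and 47.9% on the chromosome as a whole. Merging gave 7 regions and 4 consensus origins (57.1%, with 36.7% of merged regions on chromosome 20), 1 of them in all 3 replicates (14.3%, chromosome-wide 6.47%). The count was 1 without replicate 1, 2 without replicate 2 and 3 without replicate 3.

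That shared origin, 20:57463401-57468200, held 3, 3 and 1 summits, and replicates 1 and 2 put their highest at the same base, 57467331. Scores were 14.6, 39.4 and 9.28, at percentiles 93.3, 99.1 and 94.6. It was the single consensus origin of all replicates in the 4 domains whose top summit stood above percentile 90 in each. The top summit of replicate 3 lay 2362 bases from that of replicates 1 and 2. The next by mean percentile were 20:57414201-57417200, where the top summits of replicates 1 and 2 were 1 base apart, and 20:57455401-57458200, where they were 32 bases apart. The last one, at 20:57488401-57491600, ran over the end of the domain. Of 7 summits of replicate 2 in this domain, 6 had a summit of replicate 1 within 250 bases (85.7%, rest of the chromosome 51.3%), the highest of the 6 directed pairs, all of which lay above the rest, and the small number makes this share imprecise. No consensus origin lay in the 38.2 kb between 57417201 and 57455400, although replicates 1 and 3 each had 3 summits there.

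**Figure D5:**
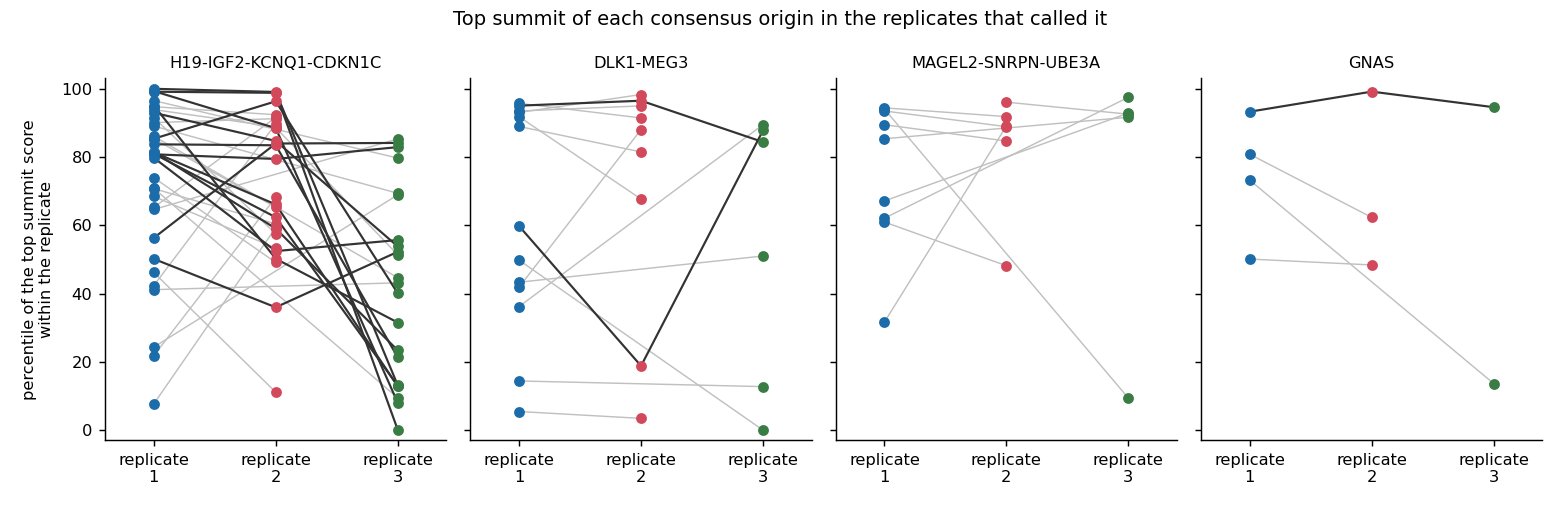
Percentile of the top summit score of each consensus origin within the list of the replicate that called it, for the 4 domains. Lines join the replicates of 1 origin, black for origins of all 3 replicates and grey for those of 2. In the H19-IGF2-KCNQ1-CDKN1C domain 11 of 14 black lines end lower in replicate 3 than they start in replicate 1, a share near the 76.2% of chromosome 11, and the single black line of the GNAS domain stays above 90 throughout.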

How the data were processed

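SNS-seq libraries of untreated HCT116 cells, 3 replicates, had been aligned to hg19 by the authors with Bowtie2 (2.3.4.2 in the submitters' processing notes), freed of duplicates with Picard (2.18.17), and called per replicate with MACS2 (2.1.0.20151222, q of 0.1) and EPIC2 (FDR of 0.1). No control library is named. The deposited EPIC2 score, of a kind not stated, was used only to rank regions within a replicate. The deposited MACS2 score was read as −log10 of q. Percentiles are ranks within a replicate's list. The mean percentile of a consensus origin was taken over the top summits of the replicates that called it.

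Intervals were computed with Python 3.11.15, numpy 2.4.6 and scipy 1.17.1, and the functions were tested on simulated calls. The rest of a chromosome comprised 1 Mb windows holding any call. Domains and lists were chosen with earlier results of these data known. Named regions were consensus origins of all 3 replicates, the 3 with the highest mean percentile per domain, the longest empty stretches and the calls at the domain edges; the GNAS origin 20:57488401-57491600 was named outside that rule, after its values were seen. Alternatives covered the reference, unit, stringency, overlap, a fixed number of EPIC2 regions (44482) from every list, and omission of each replicate in turn. The reference at hand was GRCh38, so genes and sequences were not placed.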

Additional observations from a re-analysis of the deposited data

How the results depend on the processing

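No paired analysis was possible because all replicates belong to 1 group. Depth is unknown, and domains with few calls, GNAS above all, move by large shares when 1 region is gained or lost. The causes of the changes below were not tested, except that a demand for all 3 replicates can only lower a count of consensus origins. With 1 replicate left out, a consensus origin needed both of the remaining replicates, which is a stricter rule than 2 of 3.

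The density ratio changed direction in 1 case. Against the 1 Mb on each side, that of DLK1-MEG3 went from 2.28 to 0.935, while that of H19-IGF2-KCNQ1-CDKN1C went from 2.95 to 1.17 and that of MAGEL2-SNRPN-UBE3A from 0.337 to 0.612. The last was also 0.698 for MACS2 summits and 0.235 with equal numbers of EPIC2 regions. The GNAS ratio moved by less than its SD and kept its direction under each of 13 alternatives, as did the H19-IGF2-KCNQ1-CDKN1C ratio under 12 of 13 and the MAGEL2-SNRPN-UBE3A ratio under 10 of 13. The DLK1-MEG3 ratio also moved by less than its SD under each of 13, with the change of direction above among them. The yardstick was the spread of the replicates, with an SD of 1.39 for GNAS and 0.0900 for MAGEL2-SNRPN-UBE3A. A wide spread lets larger moves pass, so these counts do not rank the domains by stability. The MAGEL2-SNRPN-UBE3A ratio stayed below 1 under each of 13 alternatives, at 0.698 or lower. Leaving out 1 replicate gave 1.99 to 3.61 for H19-IGF2-KCNQ1-CDKN1C, 1.31 to 2.96 for DLK1-MEG3, 0.298 to 0.386 for MAGEL2-SNRPN-UBE3A and 1.15 to 2.45 for GNAS.

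Consensus origins numbered 35 in H19-IGF2-KCNQ1-CDKN1C, 13 in DLK1-MEG3, 10 in MAGEL2-SNRPN-UBE3A and 4 in GNAS, and in that order 14, 2, 0 and 1 with all 3 replicates required. The upper 50% of EPIC2 scores left 23, 8, 4 and 2. Reciprocal overlap of 50% left 19 in H19-IGF2-KCNQ1-CDKN1C and 7 in DLK1-MEG3, and all EPIC2 regions gave 61 and 22 there. Equal numbers of regions left 7 in DLK1-MEG3, 3 in MAGEL2-SNRPN-UBE3A and 2 in GNAS. Summits widened by 250 bases gave 35 in MAGEL2-SNRPN-UBE3A and 7 in GNAS. Leaving out 1 replicate gave 13 to 28, 2 to 10, 1 to 5 and 1 to 3 in the order above.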
